A study of Rattus norvegicus with 6 samples.

Results

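The genes described here are 10 antioxidant genes of the NRF2 pathway, measured by RNA-seq in rat bone marrow mesenchymal stem cells (BMSCs) given ginsenoside Rb1 or DMSO. They were taken by symbol (Nfe2l2, Keap1, Hmox1, Nqo1, Gclc, Gclm, Txnrd1, Srxn1, Slc7a11 and Prdx1), with earlier results of these data known. All 10 were found, each in a single row, among the 21797 genes of the expression table. One group of 3 libraries came from cells incubated with 20 µM ginsenoside Rb1, a saponin of ginseng, and the study's methods give 24 h of incubation. The other group of 3 libraries came from cells that the sample labels describe as given DMSO, the solvent. Both groups were unmodified primary BMSCs, flushed from femur and tibia of Sprague–Dawley rats aged 4 weeks and used at passages 2 to 3; the methods call these rats male and the labels female. Neither source says whether the libraries within a group represent different cultures or animals, so the p-values measure only how these libraries vary, and that variation may be technical.

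NRF2, the product of Nfe2l2, is a transcription factor that switches on genes against oxidants and electrophiles. In resting cells KEAP1 binds NRF2 and passes it to the CUL3 ubiquitin ligase for degradation, and modification of KEAP1 cysteines by electrophiles stops this, so that NRF2 is controlled mainly at the level of protein. In the nucleus NRF2 pairs with small MAF proteins on antioxidant response elements, while BACH1 competes for the same sites, above all at the heme oxygenase gene. Its targets make and use glutathione, reduce thioredoxin and peroxides, break down heme and reduce quinones. In mesenchymal stromal cells the pathway is known for its part in survival under oxidative stress.

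The letters of the antioxidant response element, TGACNNNGC, were looked for on both strands in RefSeq promoter windows of the assembly GRCr8, each of 300 bases from 250 before to 50 after an annotated start. Of the 10 genes, 9 had at least 1 such window (Hmox1 had none) and Txnrd1 had 2. The letters occurred in 4 of these 10 windows, those of Gclm, Prdx1 and Nfe2l2 and 1 of the 2 of Txnrd1, compared with 12.1% of all 33469 windows and 14.8% of the windows of genes tested. A match is a description of letters, and the absence of one says only that these letters are not in that window. The matches upstream of a start are shown because they let the target genes be read beside their levels, with the element in capitals and 20 bases on each side, 5′ to 3′ on the strand of the gene. In all 3 the element lies on the other strand, so that it reads GCNNNGTCA.
Gclm, chr2:213031943-213031991, plus strand, first capital 172 bases before the start: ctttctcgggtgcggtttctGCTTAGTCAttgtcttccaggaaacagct
Prdx1, chr5:135383751-135383799, plus strand, first capital 135 bases before the start: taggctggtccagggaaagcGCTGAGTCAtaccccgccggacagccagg
Txnrd1, chr7:22755954-22756002, minus strand, first capital 78 bases before the start: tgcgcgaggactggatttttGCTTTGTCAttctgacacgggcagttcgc
The 3 genes with these letters did not share a direction by value. Gclm was higher with ginsenoside Rb1, Txnrd1 was lower and the direction of Prdx1 turned with a single library. In all 3 the groups overlapped, as given below for each, and the part of the letters in these levels was not tested.

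The libraries held 8197155 to 14177067 fragments, recovered from scaled counts, and Rb1 replicate 1 was the shallowest and stood apart from its group (its log2 values correlated on average at 0.972 with those of its group, compared with 0.980 and 0.981 for replicates 2 and 3). Mitochondrially encoded transcripts took 9.39% to 11.5% of the fragments with Rb1 and 5.58% to 8.65% with DMSO. The label of mesenchymal cells was checked with 11 stromal markers, among them Thy1, Nt5e and Pdgfrb, all of which were measured above the filter. They had a summed level of 6775 to 8448 FPKM with Rb1 and 9574 to 10532 FPKM with DMSO. Col1a1 and Col3a1 made up most of this sum. By value 10 of the 11 markers were lower with Rb1 and 1 was higher. Without overlap 6 were lower (20.3% of all genes tested) and 1 was higher (11.9% of all genes tested). Macrophage markers were also present in every library. All 14 of them, including Cd68, Csf1r and Lyz2, passed the filter, and none was at 0. Their summed level was 4484 to 4906 FPKM with Rb1 and 4136 to 4243 FPKM with DMSO. Most of this sum was Lyz2, and by value 11 of the 14 markers were lower with Rb1 and 3 higher. Of 8 endothelial markers, Cdh5, Kdr, Tek, Vwf and Emcn stayed under 1 FPKM in all libraries. Egfl7, Esam and Tie1 passed the filter and were lower with Rb1 without overlap, as were 20.3% of all genes tested. The summed level of the 8 markers was 21.4 to 23.4 FPKM with Rb1 and 32.2 to 49.6 FPKM with DMSO. The 7 erythroid and B cell markers summed to 0 to 96.2 FPKM with Rb1 and 7.46 to 68.0 FPKM with DMSO, mostly from Hbb, which was at 87.1 FPKM in Rb1 replicate 2 and 65.2 FPKM in DMSO replicate 2, whereas Cd79b and Ms4a1 were at 0 throughout. The part of these markers in the results was not tested. In such bulk samples fewer cells of a type and less RNA per cell cannot be told apart.

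None of the 10 NRF2 pathway genes passed the test over all genes, and they did not move as a group. Gclc, the catalytic subunit of the enzyme that starts glutathione synthesis, was higher in all 3 Rb1 libraries than in any DMSO library, whereas Hmox1, the enzyme that breaks down heme, and Keap1, the repressor of NRF2, were lower in all 3. The other 7 genes had levels that overlapped between the groups. By value 5 genes were higher and 5 lower, and the median log2 difference (Rb1 minus DMSO, on log2(FPKM + 1)) was 0.0019 for the 10 genes and −0.070 for all 10781 genes tested. FPKM is a fragment count scaled for transcript length and for the mapped fragments of the library, and a gene was tested if it reached an FPKM of 1 in at least 3 libraries, which all 10 did.

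The calls of the members have to be read against the background. At an adjusted p under 0.05 from limma, 0 of the 10 genes were called and 0.0186% of all genes tested (2 genes). At an unadjusted p under 0.05, 2 of the 10 genes were called (22.9% of all genes), Gclc being higher (8.27% of all genes were called higher) and Hmox1 lower (14.6% of all genes were called lower). By limma-voom the counts were again 0 at an adjusted and 2 at an unadjusted p under 0.05. Groups that did not overlap were found for 1 gene that was higher, where 11.9% of all genes were, and for 2 that were lower, where 20.3% of all genes were. These shares lie near the background. The background itself depended on the scaling, since 36.2% of the genes with an unadjusted p under 0.05 were higher on FPKM as deposited, 49.4% after scaling without mitochondrial transcripts, 52.5% with quantile normalization and 57% with median scaling.

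**Figure D1:**
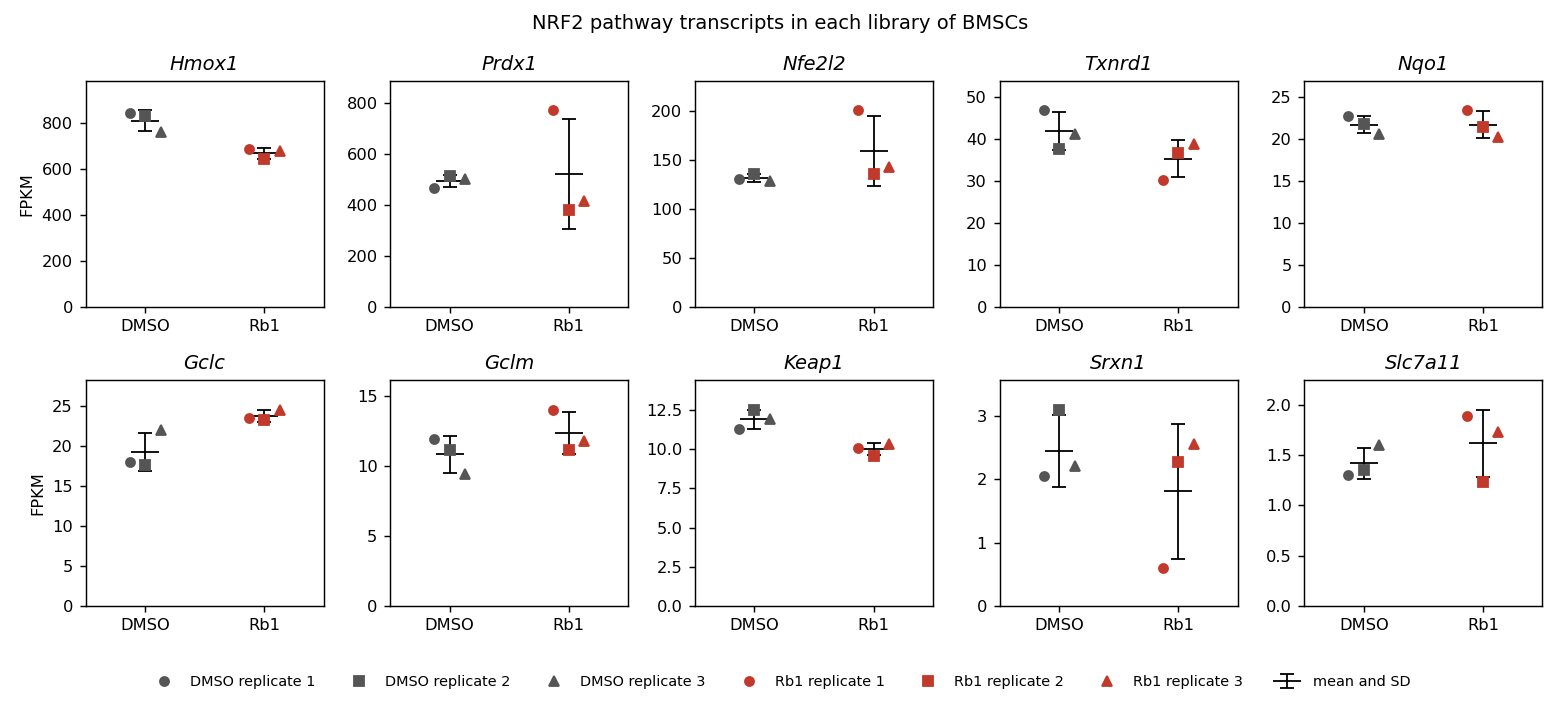
FPKM (vertical axes, from 0) of the 10 NRF2 pathway genes in each of 3 DMSO (grey) and 3 Rb1 (red) libraries, with a symbol per replicate and the mean and SD of each group. Hmox1 and Keap1 lie lower and Gclc higher in every Rb1 library, and Rb1 replicate 1 lies apart for Prdx1, Nfe2l2 and Srxn1.

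FPKM, being scaled for length, allows the levels of the genes to be ordered. Over the 6 libraries Hmox1 had the highest mean level (739.6 FPKM), followed by Prdx1 (507.1), Nfe2l2 (145.3), Txnrd1 (38.5), Nqo1 (21.7), Gclc (21.4), Gclm (11.6), Keap1 (11.0), Srxn1 (2.13) and Slc7a11 (1.52). Neighbours whose ranges over the libraries overlapped were Hmox1 and Prdx1, Nqo1 and Gclc, Gclm and Keap1, and Srxn1 and Slc7a11. In none of these pairs was the order the same in all 6 libraries. Hmox1 was below Prdx1, and Srxn1 below Slc7a11, only in Rb1 replicate 1. Among the genes tested, Hmox1 lay at percentile 98.6 of mean FPKM and Slc7a11 at percentile 6.51. The genes thus ranged from among the most abundant transcripts of these cells to some of the least abundant ones tested.

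Of the regulators, the factor and its repressor differed in opposite directions by value. Nfe2l2 (ENSRNOG00000001548) lies on chromosome 3 from 62497570 to 62524996 on the minus strand, in coordinates of the expression table, whose rat build no source used here names. Its level was 200.4, 135.2 and 142.1 FPKM in Rb1 replicates 1 to 3 and 130.2, 135.6 and 128.4 FPKM in DMSO replicates 1 to 3. Rb1 replicate 1 was far above the other 5 libraries, and Rb1 replicate 2 lay within the DMSO range. The log2 difference of Nfe2l2 was 0.25 (standard error 0.17, 95% interval −0.13 to 0.64, adjusted p = 0.386 from limma), and without Rb1 replicate 1 it was 0.077 (adjusted p = 0.649 from limma).

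Keap1 (ENSRNOG00000020878; chromosome 8, 22250517 to 22259779, minus strand) was at 10.1, 9.57 and 10.3 FPKM with Rb1 and at 11.3, 12.5 and 11.9 FPKM with DMSO. All Rb1 libraries were lower than all DMSO libraries, and Rb1 replicate 1 was close to the other Rb1 libraries. Levels averaged 9.996 ± 0.389 FPKM in the Rb1 group and 11.9 ± 0.61 FPKM in the DMSO group (SD, n = 3 each), a log2 difference of −0.23 (standard error 0.11, 95% interval −0.48 to 0.015, adjusted p = 0.241 from limma). Spreads of 3.89% and 5.14% of the mean were about those of counting alone, for which 5.19% and 4.87% were computed from its fragments. The direction was lower in all 18 alternative fits, with log2 differences of −0.27 to −0.16 and adjusted p-values of 0.142 to 0.479. The unadjusted p of 0.0622 went under 0.05 without the filter (0.0150) and with array weights (0.0364), both from limma.

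The ratio of Nfe2l2 to Keap1 within a library is free of the scaling between libraries. It was 19.9, 14.1 and 13.8 with Rb1 and 11.5, 10.8 and 10.8 with DMSO. The groups did not overlap, which leaving out a library could not change, and Rb1 replicate 1 was the highest. The log2 of the ratio was higher by 0.51 with Rb1 (p = 0.1, two-sided exact permutation test, with no smaller value possible for groups of 3). Without Rb1 replicate 1 it was higher by 0.34 (exact permutation p = 0.1, again the smallest value possible). This test therefore cannot give a p under 0.05 for the ratio with groups of 3, and no model was fitted to it.

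**Figure D2:**
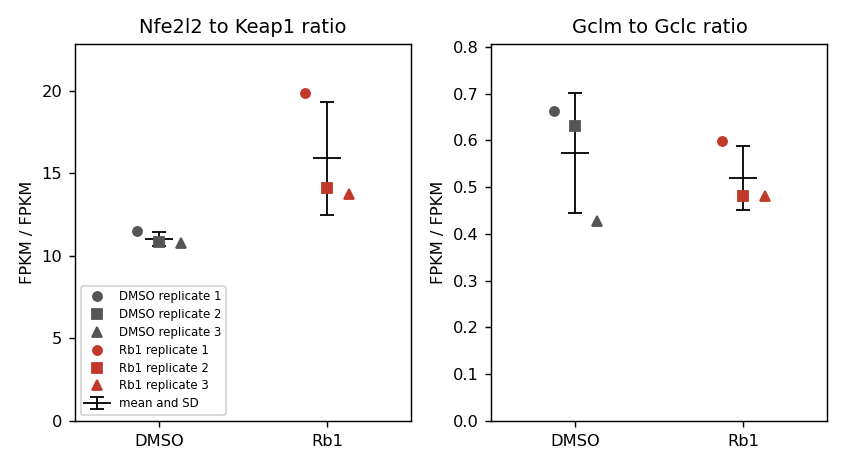
Ratio of the FPKM values of 2 genes within each library (vertical axes, from 0) for Nfe2l2 to Keap1 and for Gclm to Gclc, in 3 DMSO (grey) and 3 Rb1 (red) libraries with the mean and SD of each group. The Nfe2l2 to Keap1 ratio lies at 13.8 or above in the Rb1 libraries and at 11.5 or below in the DMSO libraries, and the Gclm to Gclc ratio overlaps.

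Glutathione synthesis starts with glutamate-cysteine ligase, whose catalytic subunit is encoded by Gclc and whose modifier subunit by Gclm. Gclc (ENSRNOG00000006302; chromosome 8, 85059050 to 85097468, plus strand) was at 23.4, 23.2 and 24.5 FPKM with Rb1 and at 18.0, 17.6 and 22.0 FPKM with DMSO. The Rb1 libraries lay close together and above all DMSO libraries, and DMSO replicate 3 was the nearest to them. Levels averaged 23.7 ± 0.72 FPKM in the Rb1 group and 19.2 ± 2.41 FPKM in the DMSO group (SD, n = 3 each), a ratio of means of 1.23. The log2 difference was 0.30 (standard error 0.12, 95% interval 0.0076 to 0.59, unadjusted p = 0.0456 and adjusted p = 0.211 from limma). In 11 of 18 alternative fits the unadjusted p stayed under 0.05, and the log2 difference lay between 0.24 and 0.39 in all of them. Leaving out any library other than DMSO replicate 3 took the unadjusted p above 0.05, to 0.0523 without Rb1 replicate 1 and at most to 0.155 without DMSO replicate 2 (limma).

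Gclm (ENSRNOG00000013409; chromosome 2, 225827503 to 225847874, plus strand) was at 14.0, 11.1 and 11.8 FPKM with Rb1 and at 11.9, 11.1 and 9.38 FPKM with DMSO. The groups overlapped, and the highest value was that of Rb1 replicate 1. For Gclm the log2 difference was 0.17 (95% interval −0.15 to 0.50, adjusted p = 0.475 from limma), and 0.084 without either Rb1 replicate 1 or DMSO replicate 3. Its fragments numbered 161 to 231 per library. The Gclm to Gclc ratio was 0.599, 0.481 and 0.481 with Rb1 and 0.662, 0.631 and 0.427 with DMSO, which overlapped (log2 difference −0.12, exact two-sided permutation p = 0.8).

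Slc7a11, the cystine transporter subunit that brings in the cysteine source for glutathione, had the lowest mean level of the 10 genes, with a range that overlapped that of Srxn1. Slc7a11 (ENSRNOG00000010210; chromosome 2, 139453773 to 139528162, minus strand) was at 1.89, 1.24 and 1.73 FPKM with Rb1 and at 1.30, 1.36 and 1.60 FPKM with DMSO, from 123 to 227 fragments per library. The groups overlapped, with the lowest and the highest value both in the Rb1 group. For Slc7a11 the log2 difference was 0.11 (95% interval −0.21 to 0.42, adjusted p = 0.654 from limma), on a scale that understates changes at such low levels, and lay at 0.032 without Rb1 replicate 1 and 0.22 without Rb1 replicate 2.

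The thioredoxin branch recycles oxidized proteins and peroxides. Txnrd1, the cytosolic reductase of thioredoxin (ENSRNOG00000009088; chromosome 7, 26946124 to 26984400, minus strand), was at 30.2, 36.7 and 38.7 FPKM with Rb1 and at 46.8, 37.6 and 41.2 FPKM with DMSO. DMSO replicate 2 lay below Rb1 replicate 3, so the groups overlapped, and the lowest value was that of Rb1 replicate 1. The log2 difference was −0.25 (95% interval −0.58 to 0.087, adjusted p = 0.333 from limma) and −0.14 without Rb1 replicate 1.

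Prdx1, an abundant peroxidase that thioredoxin reduces, showed the widest spread in FPKM. Prdx1 (ENSRNOG00000017194; chromosome 5, 135536412 to 135551990, plus strand) was at 769.2, 378.5 and 415.4 FPKM with Rb1 and at 465.9, 514.1 and 499.3 FPKM with DMSO. Rb1 replicate 1 was above and the other Rb1 libraries were below all DMSO libraries. With all libraries the log2 difference was 0.0054 (95% interval −0.60 to 0.61, adjusted p = 0.992 from limma), and without Rb1 replicate 1 it was −0.31 (unadjusted p = 0.0231, adjusted p = 0.155 from limma). That library held 1.94 times the mean of the other Rb1 libraries, from 4938 fragments. Leaving out Rb1 replicate 2 or 3 instead gave 0.20 and 0.13, and leaving out a DMSO library gave −0.035, 0.036 and 0.015 for replicates 1 to 3. The sources used here do not say how fragments shared with near-identical copies of a gene were counted, and the values of Prdx1 are uncertain to that extent.

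Srxn1, sulfiredoxin, which repairs overoxidized peroxiredoxins, was measured from few fragments. Srxn1 (ENSRNOG00000031167; chromosome 3, 147609094 to 147632801, plus strand) was counted from only 3, 17 and 21 fragments after Rb1 and from 12, 20 and 16 after DMSO, which corresponded to 0.594, 2.28 and 2.56 FPKM with Rb1 and 2.05, 3.11 and 2.21 FPKM with DMSO. Rb1 replicate 1 was lower than every other library, and the remaining values overlapped. The log2 difference of −0.37 (95% interval −1.08 to 0.34, adjusted p = 0.486 from limma) became −0.0052 without Rb1 replicate 1. It was −0.58 without Rb1 replicate 3 and −0.24 without DMSO replicate 2. The spread was 58.7% of the mean with Rb1 and 23.2% with DMSO, where counting alone gives 27.1% and 25.0%.

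Hmox1 and Nqo1 are the classic inducible targets of NRF2, and neither was higher with ginsenoside Rb1. Hmox1, heme oxygenase 1, which turns heme into biliverdin, iron and carbon monoxide (ENSRNOG00000014117; chromosome 19, 14508615 to 14515456, plus strand), was at 686.3, 641.4 and 677.7 FPKM with Rb1 and at 841.2, 830.3 and 760.6 FPKM with DMSO. Every Rb1 library lay below every DMSO library, and the gap between the nearest values was larger than the SD of either group. Levels averaged 668.5 ± 23.8 FPKM in the Rb1 group and 810.7 ± 43.8 FPKM in the DMSO group (SD, n = 3 each), a ratio of means of 0.825. The log2 difference was −0.28 (standard error 0.11, 95% interval −0.53 to −0.026, unadjusted p = 0.0348 and adjusted p = 0.190 from limma). It was lower in all 18 alternative fits, with log2 differences of −0.32 to −0.19 (adjusted p-values of 0.0817 to 0.440 from limma). The unadjusted p was above 0.05 with a replicate block (0.0787), with median scaling (0.0988) and with scaling without mitochondrial transcripts (0.0637). It was also above 0.05 without Rb1 replicate 2 (0.0896), Rb1 replicate 3 (0.0687), DMSO replicate 1 (0.112) or DMSO replicate 2 (0.108), all from limma.

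Macrophages express Hmox1 strongly, so the macrophage markers are given beside it. The summed level of the 14 markers was higher with Rb1 without overlap, but most of the sum was Lyz2. That gene was at 3304 to 3729 FPKM with Rb1 and 2835 to 2885 FPKM with DMSO. By value 11 of the 14 markers were lower with Rb1, as Hmox1 was, and 3 were higher (median log2 difference −0.18). Of all 10781 genes tested, 6363 were lower by value. Csf1r, C1qa and Laptm5 were lower with Rb1 without overlap, as were 20.3% of all genes, and the other 10 markers overlapped. The part of the macrophage markers in the result was not tested.

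Nqo1, the quinone reductase of the cytosol (ENSRNOG00000012772; chromosome 19, 38422163 to 38437180, plus strand), was at 23.4, 21.4 and 20.2 FPKM with Rb1 and at 22.7, 21.8 and 20.6 FPKM with DMSO. The groups covered nearly the same range. Levels averaged 21.7 ± 1.58 FPKM in the Rb1 group and 21.7 ± 1.03 FPKM in the DMSO group (SD, n = 3 each). The log2 difference was −0.0016 with a 95% interval of −0.26 to 0.26 (adjusted p = 0.995 from limma). Of the 10 genes Nqo1 and Prdx1 had differences nearest to 0, but Prdx1 had an interval more than 2 times as wide.

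**Figure D3:**
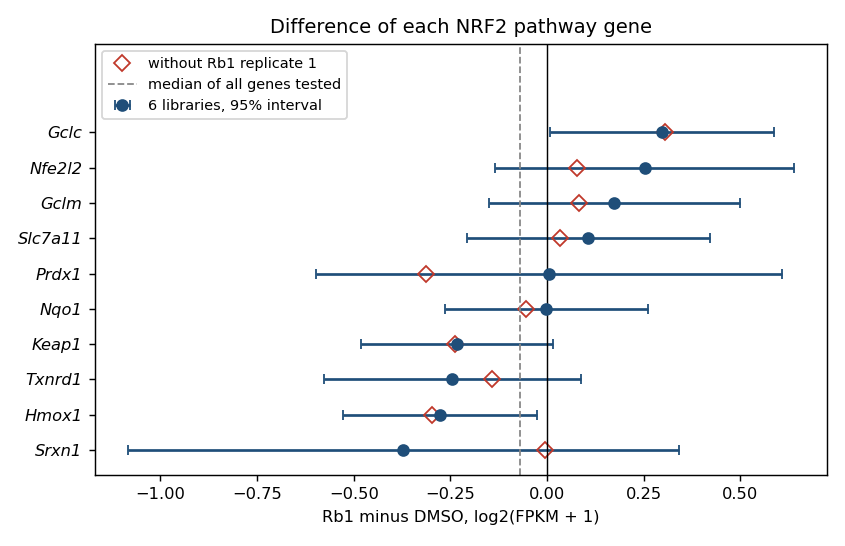
Difference between Rb1 and DMSO on the log2(FPKM + 1) scale (horizontal axis) for each of the 10 genes, with the 95% interval from limma over 6 libraries (filled circles) and the difference without Rb1 replicate 1 (open diamonds); the dashed line is the median of all genes tested, −0.070. The intervals of Gclc and Hmox1 leave out 0 before adjustment, and the diamonds of Prdx1, Srxn1 and Nfe2l2 lie farthest from their circles.

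Rb1 replicate 1 set several of these values. Of the 10 genes 5 had their highest level and 2 their lowest in this library, and Rb1 replicate 2 had the lowest level of 4. The same counts were not made for all genes tested, so they are not a trait of these genes. Relative to the mean of the other Rb1 libraries, Rb1 replicate 1 was at 1.94 times for Prdx1, 1.45 for Nfe2l2, 1.27 for Slc7a11, 1.22 for Gclm and 1.12 for Nqo1. It was at 0.246 times for Srxn1 and 0.803 for Txnrd1. Hmox1, Keap1 and Gclc, whose groups did not overlap, were within 1.04, 1.01 and 0.982 times of that mean. The differences of these 3 genes were −0.30, −0.24 and 0.31 on the log2 scale without Rb1 replicate 1, as large as with it. This library was also the shallowest, and the part of depth in these values was not tested.

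Further genes of the pathway were taken from 7 lists by function, and none of their members passed the test over all genes. As for the 10 genes, their counts have to be read against all 10781 genes tested, of which 6363 were lower and 4418 higher by value. At an unadjusted p under 0.05 from limma 14.6% were called lower and 8.27% called higher. Without overlap between the groups 20.3% were lower and 11.9% higher. Of the list genes named here, Glrx, Ggct, Gstt2, Pgls and Abcc5 had an unadjusted p under 0.05 in all 18 alternative fits, whereas Mafg, Sesn2, Txnl1, Nadk, Abcc4, Aldh2, Fth1 and Slc48a1 lost it on leaving out at least 1 of the libraries. In the list of NRF2 control, which holds small MAF proteins, BACH factors and the machinery that degrades NRF2, 14 genes were tested, 8 of them lower by value and 6 higher (median log2 difference −0.046), and 1 lower gene had an unadjusted p under 0.05 (14.6% of all genes). This was Mafg, a small MAF partner of NRF2, at 5.31, 6.22 and 7.56 FPKM with Rb1 and 10.5, 8.17 and 7.46 FPKM with DMSO (log2 difference −0.40, adjusted p = 0.216 from limma), with overlap. Maff, another small MAF gene, had a log2 difference of 0.32 and Bach1, the competitor of NRF2, one of −0.41 (adjusted p = 0.308 for each from limma). Maff was at 0.17 without Rb1 replicate 2 and 0.20 without DMSO replicate 2, and Bach1 at −0.24 without Rb1 replicate 1 and −0.25 without DMSO replicate 3.

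Among genes that make or use glutathione, 26 were tested, 13 in each direction by value (median log2 difference −0.011), and an unadjusted p under 0.05 was reached by 4 of the higher and 3 of the lower ones (8.27% and 14.6% of all genes). Glrx, glutaredoxin, which removes glutathione from proteins, was at 97.7, 87.0 and 87.2 FPKM with Rb1 and at 70.7, 67.2 and 67.3 FPKM with DMSO. These groups lay well apart, and the log2 difference of 0.40 had a standard error of 0.11 (adjusted p = 0.123 from limma). Ggct, which acts in glutathione breakdown, was at 12.2, 14.7 and 11.2 FPKM with Rb1 and at 8.59, 9.48 and 9.40 FPKM with DMSO (log2 difference 0.42, adjusted p = 0.144 from limma). Gstt2, a theta class glutathione transferase, was at 2.58, 1.86 and 1.79 FPKM with Rb1 and at 17.5, 13.1 and 2.81 FPKM with DMSO. DMSO replicate 3 was thus near the Rb1 libraries and far from the other DMSO libraries, and the log2 difference of −1.71 had a standard error of 0.53 (adjusted p = 0.145 from limma).

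Of 18 other thioredoxin and peroxiredoxin genes 13 were lower by value and 5 higher (median log2 difference −0.13), and 1 of each had an unadjusted p under 0.05 (14.6% and 8.27% of all genes). Sesn2, sestrin 2, a stress-induced inhibitor of mTORC1 signalling, was at 13.5, 21.7 and 22.2 FPKM with Rb1 and at 29.1, 25.3 and 30.4 FPKM with DMSO (log2 difference −0.57, adjusted p = 0.167 from limma), which was −0.34 without Rb1 replicate 1, the lowest. Txnl1, a thioredoxin-like protein of the proteasome, had a log2 difference of 0.31 (adjusted p = 0.211 from limma), or 0.20 without Rb1 replicate 1, and Txnrd2, the mitochondrial thioredoxin reductase, one of −0.22 (adjusted p = 0.300 from limma).

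NADPH feeds both branches. Of 9 genes of its supply 6 were lower by value and 3 higher (median −0.044), and 2 of the lower ones had an unadjusted p under 0.05 (14.6% of all genes). Pgls, of the pentose phosphate pathway, was at 24.7, 33.3 and 29.3 FPKM with Rb1 and at 46.9, 50.1 and 40.3 FPKM with DMSO. All Rb1 libraries were lower, and the log2 difference was −0.64 (standard error 0.15, adjusted p = 0.118 from limma). Nadk, the kinase that makes NADP, and Tkt, transketolase, had log2 differences of −0.29 and −0.20 (adjusted p = 0.184 and 0.323 from limma). Pgls, Nadk and Tkt were the 3 genes of the list that were lower without overlap, as were 20.3% of all genes.

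Quinone, carbonyl and drug metabolism had 20 tested genes, 16 of them lower by value and 4 higher (median log2 difference −0.15), and an unadjusted p under 0.05 was reached by 5 lower genes and 1 higher gene (14.6% and 8.27% of all genes). The genes with the smallest p were Abcc5 and Abcc4, exporters of conjugates and nucleotides, and Aldh2, the mitochondrial aldehyde dehydrogenase. Their log2 differences were −0.47, −0.39 and −0.31 (adjusted p = 0.126, 0.177 and 0.181 from limma). These were among 4 genes of the list that were lower without overlap, as were 20.3% of all genes.

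In the list of heme and iron genes, which act next to Hmox1, 9 genes were tested, 6 lower by value and 3 higher (median log2 difference −0.20), and 2 of the lower ones had an unadjusted p under 0.05 (14.6% of all genes). Fth1, the ferritin heavy chain that stores iron, was at 4355, 2529 and 2736 FPKM with Rb1 and at 4871, 5048 and 4168 FPKM with DMSO. Rb1 replicate 1 lay within the DMSO range and the other Rb1 libraries lay far below it. The log2 difference was −0.59 (standard error 0.21, adjusted p = 0.177 from limma) and −0.83 without Rb1 replicate 1 (adjusted p = 0.102 from limma), but −0.44 and −0.50 without Rb1 replicate 2 or 3 (unadjusted p = 0.0936 and 0.0882 from limma). The light chain gene Ftl1 had values of 127.1, 70.7 and 96.7 FPKM with Rb1 and 128.1, 141.9 and 116.4 FPKM with DMSO, a log2 difference of −0.42 (adjusted p = 0.276 from limma) that was −0.63 without Rb1 replicate 1 (adjusted p = 0.119 from limma) and −0.21 without Rb1 replicate 2 (adjusted p = 0.485 from limma). Ferritin genes have many processed copies in mammals, so their fragment counts are uncertain in the same way as those of Prdx1. Slc48a1, a heme transporter, was lower in every Rb1 library (log2 difference −0.27, adjusted p = 0.218 from limma).

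The superoxide dismutases, catalase and the copper chaperone of Sod1 are antioxidant genes that depend less on NRF2. Of these 5 genes 4 were lower by value and 1 higher (median log2 difference −0.13), and 0 had an unadjusted p under 0.05 from limma (22.9% of all genes). Sod2 reached it in 2 of 18 alternative fits, among them the fit without Rb1 replicate 1. Ccs, the chaperone, had a log2 difference of −0.13, Sod2, the mitochondrial dismutase, one of −0.15 and Cat, catalase, one of −0.082 (adjusted p = 0.516, 0.581 and 0.734 from limma). The difference of Sod2 was −0.30 without Rb1 replicate 1 (adjusted p = 0.175 from limma) and −0.080 and −0.072 without Rb1 replicate 2 or 3, and that of Ccs was −0.062 without Rb1 replicate 2.

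**Figure D4:**
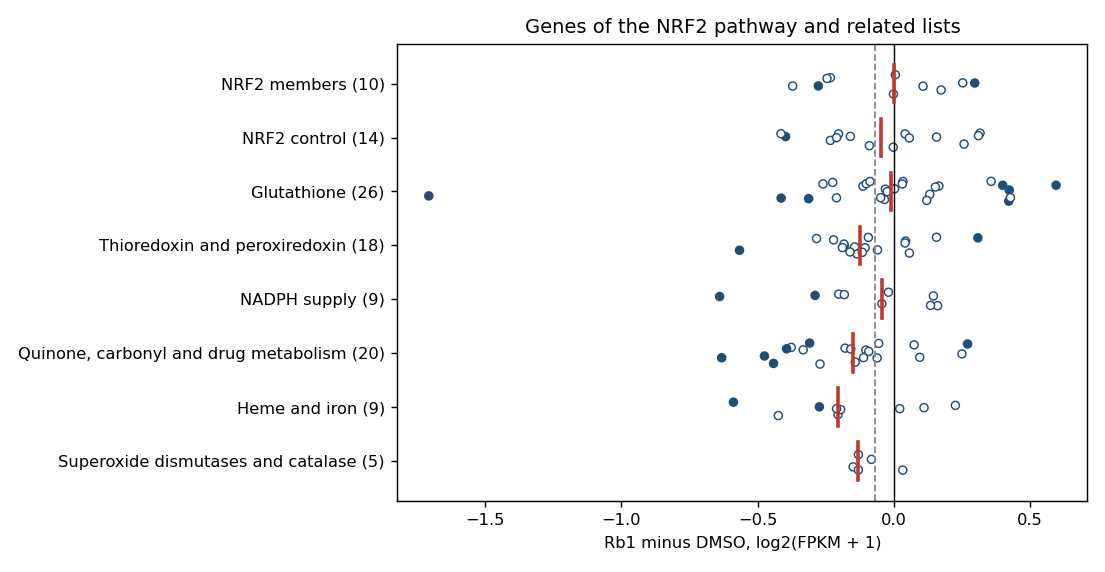
Difference between Rb1 and DMSO on the log2(FPKM + 1) scale (horizontal axis) of each tested gene in the 10 NRF2 pathway genes and 7 related lists (rows, with the number of tested genes in brackets); filled points have an unadjusted p under 0.05 from limma, red bars are list medians and the dashed line is the median of all genes tested. The medians lie between −0.20 for heme and iron genes and 0.0019 for the 10 genes, and Gstt2 is the point at −1.71.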

How the data were processed

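Stranded RNA-seq libraries were prepared after depletion of rRNA. The authors deposited FPKM values for 22062 rows of protein-coding genes, together with a signal that the header calls counts, which is a fragment count multiplied by 1 factor per library. Per the labels, CASAVA 1.8 and HISAT2 were used and the build is hg19, although the table holds rat identifiers. No source used here names the counting program. The table holds no fold changes or p-values.

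Rows that shared a symbol were added up, and limma 3.58.1 (R 4.3.3; lmFit and eBayes) was fitted to log2(FPKM + 1) of the 10781 genes that reached 1 FPKM in 3 or more of the 6 libraries, with the group as the only term. P-values were adjusted over these genes by the Benjamini-Hochberg method, and the fit was tested on simulated data. Fragments were recovered by dividing the signal by the value of 1 fragment (99.2% to 99.4% of values whole within 0.05). The members and lists were chosen with earlier results of these data known. All 10 members are named, with up to 3 genes of smallest p from each of 7 further lists.

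Alternatives covered a block, pseudocount, filter, scaling, variance model, library weights, row summing and leaving out each library; voom was added after seeing the data.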

Additional observations from a re-analysis of the deposited data

How the results depend on the processing

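Of 18 alternatives, 17 were planned and voom was chosen after seeing the data. Tests on raw counts were planned but not run, since the deposited counts are scaled and not all fragment values recovered from them were whole. Except for Nqo1, Prdx1 and Cat, all 31 named genes kept their direction in every alternative that tested them. The 2 calls over all genes became 0 with a replicate block (2082 at an unadjusted p under 0.05), 0 with voom (2426), 1 with a mean FPKM of at least 5, 1 with median scaling, 800 with array weights, which weighted Rb1 replicate 1 at 0.218, and 0 to 6 when each library was left out in turn (6 without Rb1 replicate 1; 1642 to 2352 at an unadjusted p where 0). Of the 10 NRF2 pathway genes, those with an unadjusted p under 0.05 went from 2 to 0 with the replicate block, to 1 with a pseudocount of 0.1, median scaling or scaling without mitochondrial transcripts, to 3 with no filter or array weights, where Keap1 joined, and to 0 to 2 on leaving out a library (0 without Rb1 replicate 2 or 3 or DMSO replicate 1 or 2). In their deviations from the group means, same-numbered libraries correlated at −0.0038, −0.042 and 0.16, and differently numbered ones at −0.17 to 0.15. With 3 libraries per group these values cannot settle whether libraries were paired. The main fit did not take the numbers as pairs, and the replicate block did. The median of the 10 genes was 0.084 with median scaling, −0.074 with array weights and −0.030 to 0.10 on leaving out a library (0.10 without Rb1 replicate 2). The difference of Nqo1 changed sign to 0.057 with quantile normalization, 0.079 with median scaling, 0.048 without mitochondrial transcripts and 0.00022 with voom, and was −0.055 to 0.045 on leaving out a library. That of Prdx1 became −0.016 with quantile normalization and −0.23 with array weights and was −0.31 to 0.20 on leaving out a library, and that of Cat −0.16 to 0.026. With array weights Glrx, Pgls and Fth1 passed the threshold (adjusted p = 0.0470, 0.0360 and 0.0345 from limma). The causes were not tested. Srxn1 rested on 3 to 21 fragments per library, the fewest of the 10 genes.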
